A study of Mus musculus with 8 samples.

Results

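Cybrd1 and 9 further genes of cellular iron handling were followed in dermal fibroblasts of 4 old (18 months) and 4 young (2 months) male C57Bl/6 mice, with 1 expression array per mouse. The members are all probe sets that the platform annotation gives to exactly 1 of the 10 symbols, which were 16 of the 45141 probe sets on the arrays. They cover 9 of the 17097 genes with such a probe set, since both probe sets of Slc11a2, the importer of ferrous iron, carry a further gene symbol and so have no value here. Cybrd1 was selected on its decrease in old mice in these arrays, and the other 9 were chosen by function with the old against young results known. Differences between the ages are therefore given as descriptions for these genes. The cells had been sorted from digested skin without its subdermis by Pdgfra and CD34 on their surface, leaving out cells with EpCam, CD31, CD24, CD117 or CD45, and RNA of 5000 cells per mouse was amplified for 21 cycles. The labels name no transgene and no treatment in either age.

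Each value is a log2 expression level of 1 probe set, so that 1 unit is a doubling. They have no common zero, so they are compared between mice for the same probe set and not between probe sets. For scale, the median over all probe sets was 5.10 and the 23 non-specific control probe sets had a median of 3.91, with single values of 2.98 to 7.20. Of the genes that define the sorted cells, Cd34 averaged 11.01 ± 0.04 in old and 10.82 ± 0.06 in young mice (SD, n = 4 each). Its groups did not overlap, and the difference did not pass (limma adjusted p = 0.126). Of 7 fibroblast markers, 1 passed limma's threshold, Thy1, at 10.79 ± 0.09 in old and 11.40 ± 0.06 in young mice without overlap (limma adjusted p = 0.00208). The other 6 did not pass, with differences from -0.59 for Pdgfra to 0.05 for Dcn. For Pdgfra limma gave an unadjusted p of 0.00463 and an adjusted p of 0.103. Col1a1 differed by -0.05 and Col1a2 by -0.40. The Col1a2 probe set had a mean of 7.12 over all mice, beside 13.11 for Col1a1, and which transcript it reads was not tested. The list's summed linear values were 28500 to 29650 in old and 29960 to 31310 in young mice. The brightest probe set of Pdgfra lay below the median of all probe sets, at 4.47 ± 0.28 in old and 5.06 ± 0.25 in young mice. Among the 5 genes of the negative gate, Ptprc (CD45) and Kit (CD117) lay at or below the control median and Cd24a differed between the ages: 5.33 ± 0.64 in old against 8.07 ± 0.14 in young mice (limma adjusted p = 0.00134). Epcam averaged 5.45 ± 0.19 in old and 5.05 ± 0.08 in young mice without overlap, which did not pass (limma adjusted p = 0.0715). Linear values summed over these 5 genes were 149 to 208 in old and 352 to 407 in young mice. The part of this difference in the results below was not tested. Melanocyte markers summed to 769 to 1509 in old and 410 to 560 in young mice, with 1 of 7 past limma's threshold (Mlana, 2.88 higher in old mice). Mitf was 0.57 higher and did not pass, and Pmel, Tyr, Dct, Tyrp1 and Sox10 differed by -0.085 to 0.12. Mural cell markers summed to 366 to 471 in old and 277 to 321 in young mice, with 1 of 5 past the threshold (Kcnj8, 1.16 higher). The others, Rgs5, Acta2, Myh11 and Notch3, differed by -0.045 to 0.09. Keratinocyte markers summed to 399 to 1273 in old and 301 to 562.5 in young mice, which overlap, with 0 of 6 past the threshold in limma (2 at an unadjusted p under 0.05, Epcam and Krt5) and a difference of 1.12 for Krt5. The part of these 3 lists in the results was not tested either. Red cell markers, of which 3 of 6 were measured, gave 0 past the threshold in limma, and their summed linear values were 225 to 254 in old and 239.7 to 296 in young mice.

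Iron enters most cells bound to transferrin through the transferrin receptor (Tfrc). Membrane reductases such as Cybrd1 and the Steap proteins reduce ferric to ferrous iron, and Slc11a2 carries ferrous iron across membranes. Surplus iron is stored in ferritin, whose heavy chain is Fth1, or leaves through ferroportin (Slc40a1), after which the copper-containing ferroxidases ceruloplasmin (Cp) and hephaestin (Heph) oxidise it again. Aco1 encodes an iron regulatory protein that, when iron is scarce, binds hairpins in the mRNAs of Tfrc, ferritin and ferroportin. Cybrd1, also called duodenal cytochrome b, is best known from the absorptive cells of the gut and uses ascorbate as its electron donor.

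The stretches of genome before the transcription starts of Cybrd1, Steap4 and Cp are shown because these 3 genes had lower values in old mice. Each line gives the 250 bases before a RefSeq start (GRCm38.p6, plus strand), 5′ to 3′, with capitals for the motifs searched on both strands: the hypoxia element cores ACGTG and GCGTG, the antioxidant element core TGACNNNGC and the GC box GGGCGG. The windows are chr2:71117804-71118053 for Cybrd1, chr5:7960222-7960471 for Steap4 and chr3:19956804-19957053 for the first of the 2 starts listed for Cp.
Cybrd1: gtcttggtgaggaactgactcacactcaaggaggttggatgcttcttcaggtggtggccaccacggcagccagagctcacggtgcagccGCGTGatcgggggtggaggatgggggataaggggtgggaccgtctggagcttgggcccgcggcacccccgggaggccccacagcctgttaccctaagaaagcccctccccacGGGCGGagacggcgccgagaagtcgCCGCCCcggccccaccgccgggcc
Steap4: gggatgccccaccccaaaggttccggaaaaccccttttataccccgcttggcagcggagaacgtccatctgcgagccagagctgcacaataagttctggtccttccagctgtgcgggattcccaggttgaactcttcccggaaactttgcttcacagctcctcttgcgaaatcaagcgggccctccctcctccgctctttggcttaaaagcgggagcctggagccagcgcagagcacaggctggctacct
Cp: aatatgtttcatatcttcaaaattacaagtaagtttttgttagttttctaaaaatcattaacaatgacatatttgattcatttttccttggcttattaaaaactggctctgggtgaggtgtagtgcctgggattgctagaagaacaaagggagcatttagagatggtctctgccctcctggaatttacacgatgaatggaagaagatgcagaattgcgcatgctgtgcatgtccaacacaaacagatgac
The Cybrd1 window held 1 match to GCGTG, whose first base lies 161 bases before the start, and 2 GC boxes. None of the 4 motifs was found in the Steap4 window or in either Cp window. G and C made up 69.2% of the Cybrd1 window, 58.4% of the Steap4 window and 37.2% of the Cp window shown. Among the 32851 windows of the table, 16.6% held ACGTG, 28.2% GCGTG, 10.2% TGACNNNGC and 32.7% GGGCGG, so each match is common and describes letters, not binding.

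Of the 16 probe sets, 4 passed limma's threshold (adjusted p under 0.05 over all probe sets), where 2.58% of all 45037 probe sets tested did. All 4 were lower in old mice, as 1.35% of all were. These 4 belonged to 3 genes, Cybrd1 (both probe sets), Steap4 and Cp. None of the 16 was higher past the threshold in limma, where 1.23% of all probe sets were. Without adjustment, 2 were higher and 6 lower at p under 0.05 in limma, where 6044 of all 45037 probe sets reached it in either direction. All 4 mice of one age lay below all 4 of the other in 4 probe sets with old mice lower (4.48% of all probe sets) and in 1 with old mice higher (3.96%), 5 in all (8.44%). The median difference was -0.08 over the 16 probe sets and 0.01 over all. Since the genes were chosen with these differences known, nothing is read from the counts. In sorted cells measured in bulk, fewer cells with a transcript and less transcript per cell cannot be told apart.

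**Figure D1:**
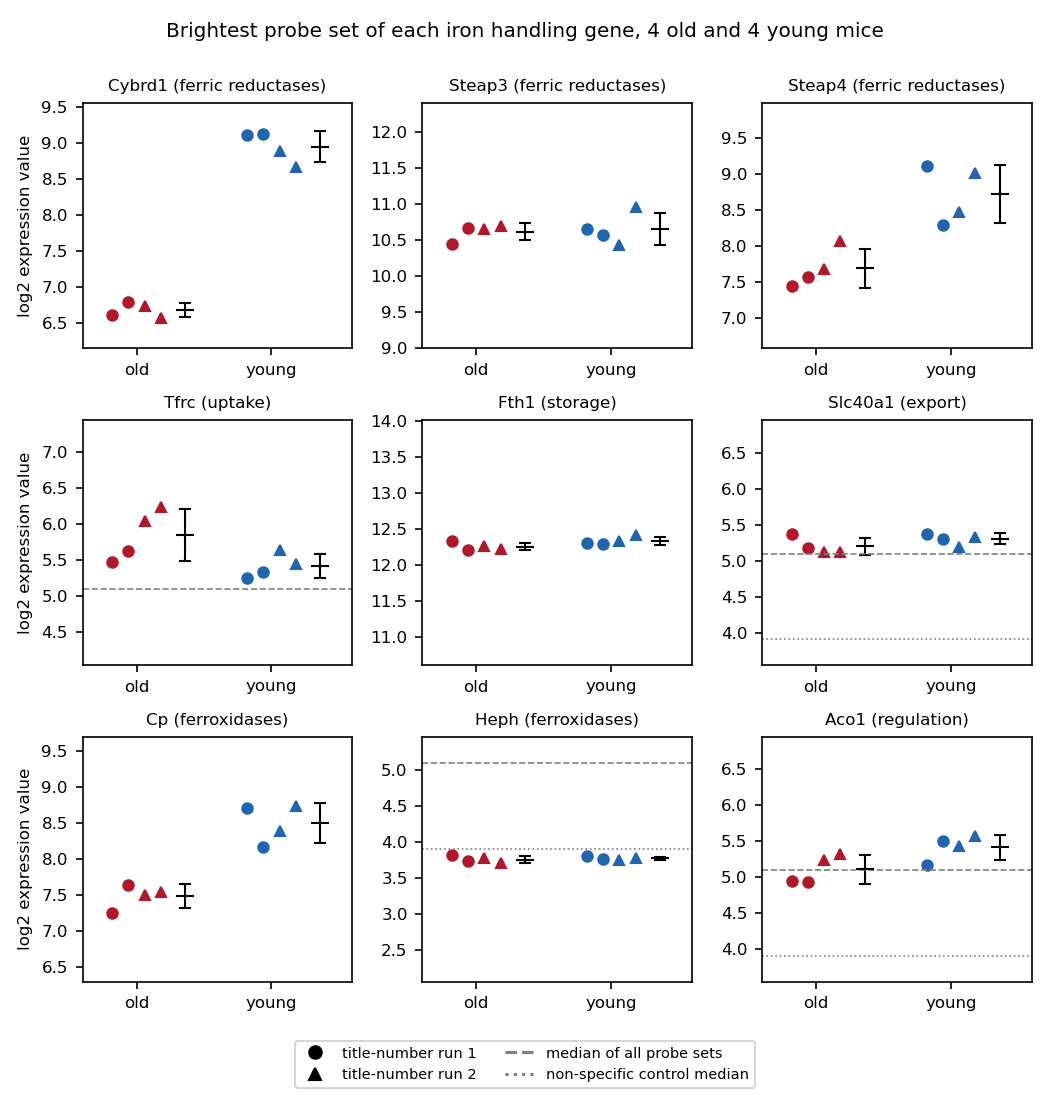
Log2 expression value (vertical axis, the same span of units in each panel) of the brightest probe set of 9 iron handling genes in 4 old mice (red, left) and 4 young mice (blue, right); bars are mean ± SD, circles and triangles mark the 2 runs of title numbers, and dashed and dotted lines, where in range, the median of all probe sets (5.10) and of non-specific controls (3.91). Old and young mice lie apart for Cybrd1, Steap4 and Cp, and overlap for the other 6 genes.

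Among the reductases, Cybrd1 had the largest difference, with lower values in old mice. Its brighter probe set read 6.61, 6.78, 6.73 and 6.57 in old replicates 1 to 4, against 9.11, 9.12, 8.88 and 8.66 in young replicates 1 to 4. The groups were separated by a gap wider than the range within either age, with means of 6.67 ± 0.10 in old and 8.94 ± 0.22 in young mice (SD, n = 4 each). The difference was -2.27 ± 0.11 (SE), a level 4.82-fold lower in old mice. The dimmer probe set of Cybrd1 read 4.45, 4.43, 4.58 and 4.53 in old mice, below the median of all probe sets, against 5.65, 6.07, 6.30 and 6.73 in young mice. Here too no old mouse reached the lowest young one, and the difference was -1.69 ± 0.19 (SE). The young mice were ordered differently in the 2 probe sets: young replicate 4 was lowest in the brighter and highest in the dimmer one. Leaving out each mouse in turn gave differences of -2.36 to -2.21 for the brighter and -1.87 to -1.51 for the dimmer probe set, each past limma's threshold in all 8 fits. Cybrd1 was selected on these same arrays, so these fits describe the weight of single mice and add no evidence for the difference.

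**Figure D2:**
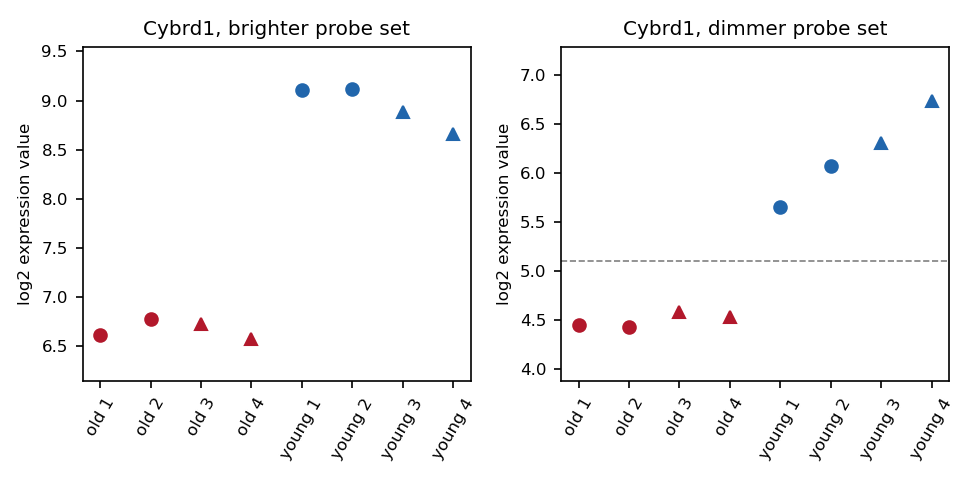
Log2 expression value of both Cybrd1 probe sets in each mouse, old mice in red and young mice in blue, with circles and triangles for the 2 runs of title numbers and a dashed line at the median of all probe sets. Every old mouse lies below every young mouse in both panels, and the young mice spread from 8.66 to 9.12 in the brighter probe set and from 5.65 to 6.73 in the dimmer one.

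Steap4, a reductase of iron and copper also known as a TNF-induced protein of fat cells, had lower values in old mice by its brighter probe set. It read 7.45, 7.57, 7.68 and 8.08 in old mice, against 9.12, 8.30, 8.47 and 9.02 in young mice. The groups came close, with old replicate 4 just under young replicate 2. The difference was -1.03 ± 0.20 (SE; means 7.70 ± 0.27 in old and 8.73 ± 0.40 in young mice, SD, n = 4 each), 2.05-fold. It stayed past limma's threshold in 2 of the 8 fits without 1 mouse (without old replicate 4 or young replicate 2) and not without old replicates 1, 2 or 3 or young replicates 1, 3 or 4, where adjusted p lay between 0.0524 and 0.093. The dimmer probe set ran from 5.36 to 5.82 in old and from 5.70 to 6.69 in young mice, which overlap, with a difference of -0.62 ± 0.22 that did not pass. Steap3, the reductase of transferrin endosomes in red cell precursors, read 10.44, 10.67, 10.65 and 10.69 in old mice, against 10.65, 10.56, 10.43 and 10.96 in young mice. The old mice lay within the young range and young replicate 4 above all old mice, and the difference was -0.04 ± 0.11 (SE).

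The ferroxidase gene Cp had lower values in old mice by the brighter of its 2 probe sets. It read 7.26, 7.65, 7.50 and 7.54 in old mice, against 8.72, 8.17, 8.39 and 8.74 in young mice. The highest old mouse lay below the lowest young one, and the difference was -1.02 ± 0.14 (SE; means 7.49 ± 0.16 in old and 8.51 ± 0.28 in young mice, SD, n = 4 each), 2.02-fold. Without each mouse in turn it ran from -1.13 to -0.94 and passed limma's threshold in all 8 fits, which reuse the arrays known when Cp was chosen. The other Cp probe set, with a mean of 3.54, lay below the control median and changed by -0.08 ± 0.07, so a difference could be missed there. With both probe sets averaged, the Cp difference was -0.55. The second ferroxidase gene, Heph, had 1 probe set, which ran from 3.71 to 3.82 in old and from 3.76 to 3.81 in young mice, below the control median in each mouse.

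Macrophages also express Cp, Slc40a1 and Tfrc. Of 13 macrophage markers, 0 passed limma's threshold and 9 lay below the median of all probe sets, with Ptprc and Cd163 at or below the control median. Their summed linear values ran from 776 to 875 in old and from 732 to 879.7 in young mice, which overlap. These sums rest mostly on the brightest marker, Csf1r, so they say little about the dimmer ones. Csf1r averaged 8.82 ± 0.10 in old and 8.85 ± 0.21 in young mice (SD, n = 4 each). Fcer1g was 0.19 higher in old mice, at an unadjusted p of 0.0273 in limma. The part of macrophages in the results was not tested.

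Uptake and storage genes differed less. The brightest of the 3 Tfrc probe sets read 5.48, 5.63, 6.05 and 6.24 in old mice, against 5.25, 5.34, 5.64 and 5.45 in young mice. Old replicates 1 and 2 lay within the young range and old replicates 3 and 4 above it, with a difference of 0.43 ± 0.17 (SE) that did not pass. With the run of title numbers as a block it passed (limma adjusted p = 0.0458). The second Tfrc probe set, near the lower end of the arrays with a mean of 4.63, ran from 4.59 to 4.98 in old and from 4.22 to 4.58 in young mice, without overlap, and differed by 0.38 ± 0.11. The third differed by 0.17 ± 0.10. All 3 thus had a positive difference and none passed in the fit without the block.

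Fth1, the ferritin heavy chain, read 12.33, 12.21, 12.26 and 12.22 in old mice, against 12.30, 12.29, 12.33 and 12.41 in young mice. These values lie toward the upper end of the arrays, whose highest value was 13.32, and spread by 0.05 (SD) within each age. The difference was -0.08 ± 0.06 (SE). Ferritin has many processed gene copies, and whether this probe set reads them was not tested. Slc40a1, the exporter, read 5.37, 5.18, 5.13 and 5.13 in old mice, against 5.38, 5.31, 5.20 and 5.33 in young mice. Its groups overlapped, with a difference of -0.10 ± 0.07, and its dimmer probe set, with a mean of 4.16, differed by -0.02 ± 0.08. Aco1 read 4.95, 4.93, 5.24 and 5.32 in old mice, against 5.17, 5.50, 5.43 and 5.57 in young mice. Old replicates 1 and 2 lay below all young mice and old replicates 3 and 4 within their range. The Aco1 difference was -0.31 ± 0.12 (SE) and did not pass, and its dimmer probe set differed by 0.06 ± 0.11.

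**Figure D3:**
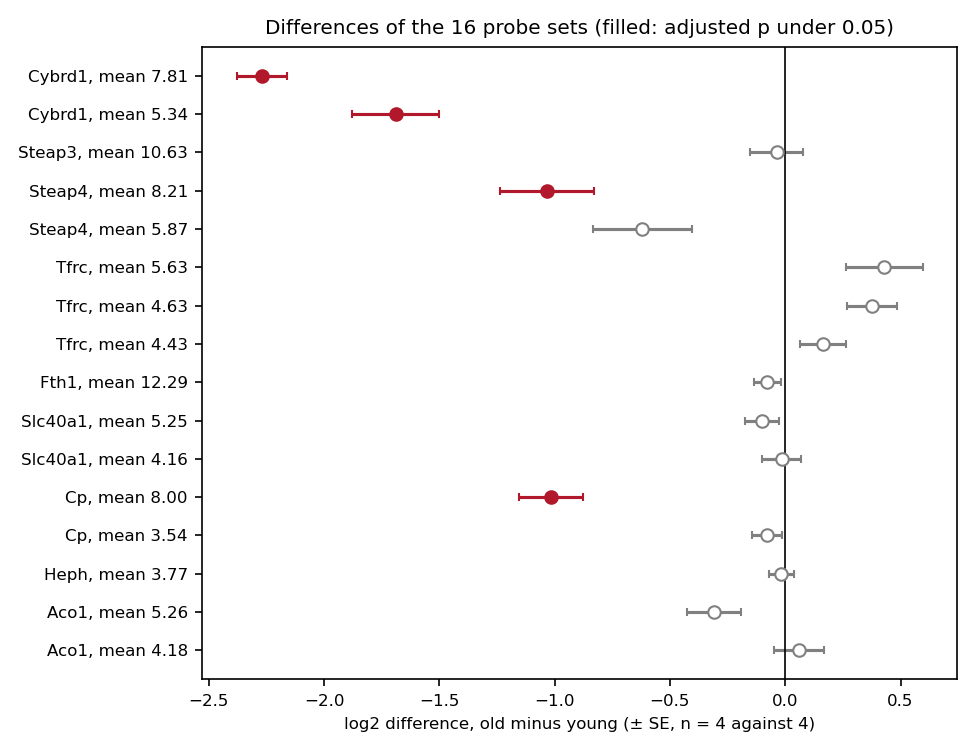
Log2 difference of old minus young mice (horizontal axis, ± SE, n = 4 against 4) for each of the 16 probe sets, ordered by role, with the mean over all 8 mice beside the symbol; filled points passed limma's threshold. The 4 filled points are the Cybrd1 probe sets at -2.27 and -1.69, Steap4 at -1.03 and Cp at -1.02.

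The choice of genes did not use the 2 runs of numbers in the sample titles, each with 2 old and 2 young mice. Whether these runs are the collection days, on each of which 2 old and 2 young mice were taken, is not stated. In a limma fit with age and run, 95 probe sets (0.211%) differed between the runs, and 0 of the 16 did. At an unadjusted p under 0.05 the count was 4 of 16, beside 17% of all probe sets. The lowest limma adjusted p among the 16 was 0.1 for the brightest Tfrc probe set, which was 0.42 higher in the second run. Next came the dimmer Aco1 probe set, 0.26 lower in the second run (limma adjusted p = 0.124), and the brighter one, 0.25 higher (limma adjusted p = 0.204).

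Whether the difference between the ages itself differed between the runs was tested as an interaction. No probe set passed (0 of 45037 in limma, 3043 or 6.76% at an unadjusted p under 0.05), and none of the 16 reached an unadjusted p under 0.05. For the brighter Cybrd1 probe set, old minus young was -2.42 in the first and -2.12 in the second run, an interaction of 0.30 ± 0.16 (SE). For the dimmer one it was -1.42 and -1.96, an interaction of -0.54 ± 0.24. Within the runs Steap4 differed by -1.20 and -0.87 and Cp by -0.99 and -1.05. The lowest limma adjusted p for an interaction among the 16 was 0.754. With 2 mice per age and run, only large interactions could have been found.

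Beyond the 10 genes, 84 genes of iron handling were listed by function and 76 had a probe set with a single symbol. By their brightest probe sets, 2 rose and 0 fell in old mice in limma, where 3.36% of 17097 genes passed in either direction. Without adjustment, 8 reached p under 0.05 in limma with higher and 5 with lower values in old mice. Over all probe sets, not reduced to 1 per gene, 6044 of 45037 reached it in either direction. The unadjusted counts by list below have the same background. The median difference of the 76 was 0.01. Slc39a8, which encodes the zinc and iron importer ZIP8, read 6.23, 6.15, 6.73 and 6.47 in old mice, against 5.51, 5.50, 5.13 and 5.56 in young mice. It rose by 0.97 ± 0.14 (SE; limma adjusted p = 0.00828), without overlap and past the threshold without each mouse in turn. Its probe sets disagreed in size, and their mean rose by 0.54 (limma adjusted p = 0.0058). Pgrmc1, a heme-binding membrane protein, read 9.97, 9.96, 10.03 and 10.16 in old mice, against 9.63, 9.59, 9.73 and 9.38 in young mice. The groups did not overlap. It averaged 10.03 ± 0.09 in old and 9.58 ± 0.15 in young mice (SD, n = 4 each) and rose by 0.45 ± 0.09 (limma adjusted p = 0.0282). It stayed past the threshold without old replicate 1 or young replicates 3 or 4 and not without old replicates 2, 3 or 4 or young replicates 1 or 2 (limma adjusted p from 0.0616 to 0.0797).

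By list, uptake and carrier genes gave 1 of 15 that rose and 0 that fell. Trf, which encodes transferrin, had a difference of -0.49 ± 0.23 and the mitochondrial importer gene Slc25a37 one of -0.25 ± 0.11, and neither passed. Of the 9 other reductases and oxidases, 0 passed in limma (2 at an unadjusted p under 0.05). Their largest differences were positive, unlike those of Cybrd1 and Steap4: 0.75 ± 0.24 for Cyb561, the b561 cytochrome of secretory vesicles and a relative of Cybrd1, and 0.44 ± 0.12 for the ferric-chelate reductase gene Frrs1. Cyb561 read 5.70, 6.36, 6.83 and 6.94 in old mice, against 5.77, 5.75, 5.52 and 5.79 in young mice. Old replicate 1 lay in the young range and the other 3 old mice above it; without old replicate 1 the difference was 1.00 and passed (limma adjusted p = 0.0118), as it did with array weights (0.91, limma adjusted p = 0.0309). Frrs1 passed with the run block (limma adjusted p = 0.047) and with array weights (limma adjusted p = 0.0445).

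None of the 5 storage and chaperone genes passed in limma (0 also at an unadjusted p under 0.05). The ferritin light chain gene Ftl1 averaged 12.13 ± 0.03 in old and 12.08 ± 0.05 in young mice (SD, n = 4 each). Ncoa4, which delivers ferritin to lysosomes, differed by -0.10 ± 0.11. Of 12 regulators of iron balance 11 were measured, all but Ireb2, and 0 passed in limma (1 at an unadjusted p under 0.05). Bmp6, the growth factor that induces hepcidin in the liver, differed by -0.41 ± 0.13 and the hypoxia factor gene Epas1 by -0.27 ± 0.14. Of 17 genes of heme synthesis, transport and breakdown, Pgrmc1 was the 1 that rose and 0 fell (3 higher and 1 lower at an unadjusted p under 0.05 in limma). The heme oxygenase gene Hmox1 averaged 10.88 ± 0.05 in old and 10.58 ± 0.21 in young mice, a difference of 0.31 ± 0.10 that passed only without young replicate 3 (0.40, limma adjusted p = 0.045). The biliverdin reductase gene Blvrb differed by 0.32 ± 0.11. Of 19 genes of iron-sulfur cluster assembly, 0 passed in limma (3 at an unadjusted p under 0.05). Bola3 differed by -0.48 ± 0.18 and the mitochondrial chaperone gene Hspa9 by 0.42 ± 0.14.

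**Figure D4:**
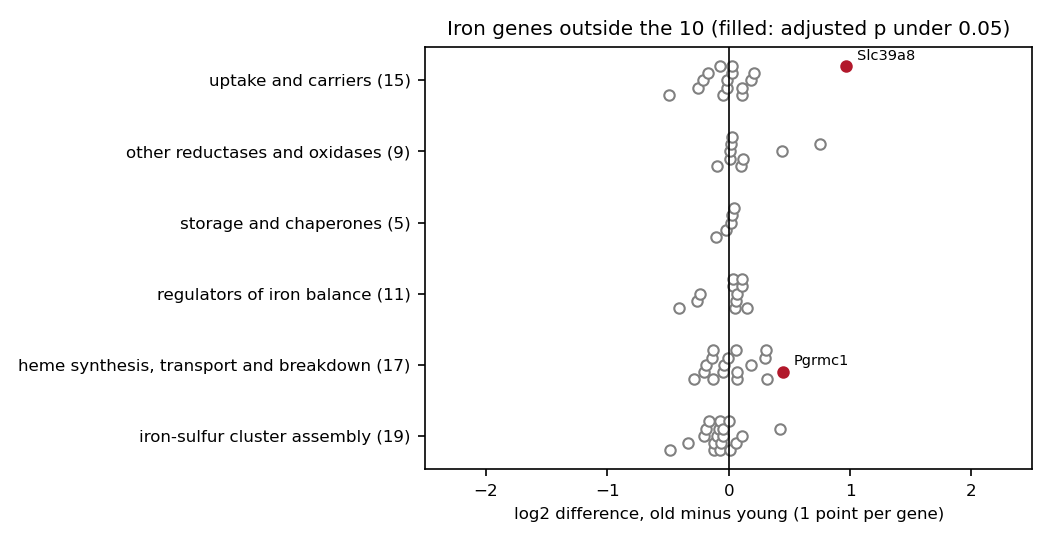
Log2 difference of old minus young mice for 76 iron genes outside the 10, 1 point per gene by its brightest probe set, in 6 lists with the number measured in brackets; filled points passed limma's threshold. Slc39a8 at 0.97 and Pgrmc1 at 0.45 are filled, and all others except Cyb561 (0.75) lie between -0.49 and 0.44.

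The genes with the pattern most like that of Cybrd1 were sought among 10553 genes with a probe set above the median of all. Likeness was the root mean square difference, over the 8 mice, between log2 profiles centred on their own mean. It was 1.14 for the median gene. The 6 closest were Cd24a (0.194), the retinoic acid-binding protein gene Crabp1 (0.212), the immunoglobulin receptor gene Fcgr3 (0.224), the actin-bundling protein gene Fscn1 (0.233), the collagen-binding proteoglycan gene Fmod (0.298) and the metalloprotease gene Mmp16 (0.298). Since Cybrd1 was chosen for its difference between the ages, the closest genes are ones with a like difference, from -2.58 for Fmod to -1.79 for Mmp16. Cd24a is 1 of the genes the sort selected against, and the probe set closest to Cybrd1 averaged 4.42 ± 0.10 in old and 6.55 ± 0.36 in young mice (SD, n = 4 each). None of the other 9 iron genes was among the 6. Slc11a2 had no value and the Heph probe set lay below the median, so neither was compared. The largest difference among the rest, -1.03 for Steap4, was known to be smaller than those of the 6, so nothing is read from this.

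**Figure D5:**
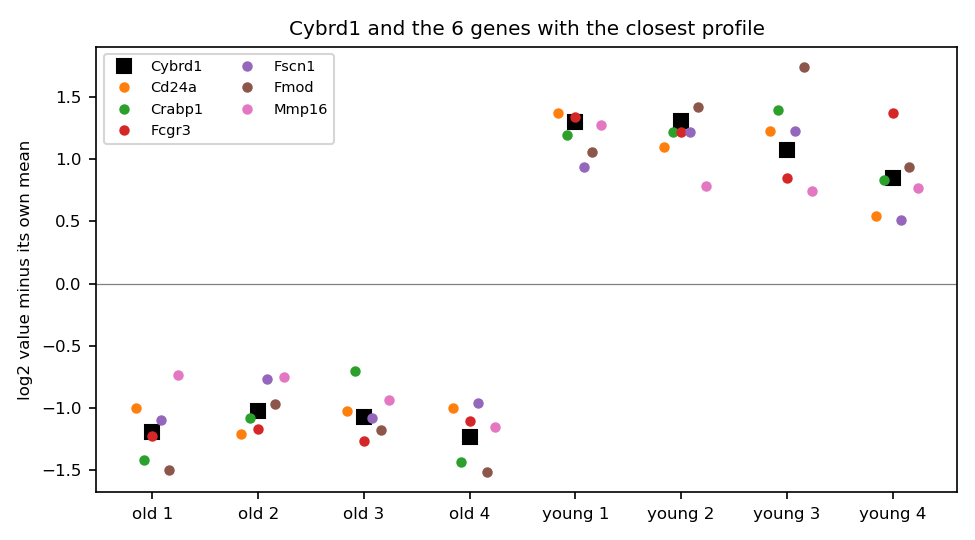
Log2 value minus the gene's own mean (vertical axis) in each of 4 old and 4 young mice for Cybrd1 (black squares) and the 6 genes with the smallest root mean square difference from it (coloured points, shifted sideways for display). The closest, Cd24a, differs from Cybrd1 by 0.194 and the sixth, Mmp16, by 0.298.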

How the data were processed

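Expression was measured on Affymetrix arrays of 8 mice, 4 old and 4 young. The deposited log2 values per probe set are the authors' own, for which the submitters' processing notes name RMA and affy without versions. RMA normalizes arrays to a common distribution, so a shift shared by most genes would not be seen. Values are rounded to 2 decimals. The array number limits the precision. Of the 45141 probe sets, 104 Affymetrix controls were left out. Symbols came from the platform annotation (28898 probe sets with 1 symbol, 551 with several) and were checked by gene identifier. Promoter windows were found for 7 of the 10 members in RefSeq's table.

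Old and young mice were compared with limma 3.58.1 in R 4.3.3 (lmFit, eBayes, 2-sided), with Benjamini-Hochberg adjustment over 45037 probe sets. Listed genes were represented by their brightest probe set. Named from each list were all genes past the threshold and the 2 largest differences among the rest above the median level, and the 6 closest profiles to Cybrd1. The members and the lists were chosen with earlier results of these data known. The fits were tested on simulated data. Each array comes from a separate mouse. Alternatives changed the prior, weights, scaling, filter, probe set handling, threshold, run block and set of mice.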

Additional observations from a re-analysis of the deposited data

Results flagged for a closer look

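Among the probe sets described above, 60 groups of 4 mice were examined for a single mouse far from the other 3 (Dixon's criterion, 0.829), which chance alone meets in about 1 of 20 groups. It was met in 3. Steap3 read 10.44 in old replicate 1, against 10.65 to 10.69 in the other old mice. Slc39a8 read 5.13 in young replicate 3, against 5.50 to 5.56 in the other young mice. Cyb561 read 5.52 in young replicate 3, against 5.75 to 5.79 in the other young mice.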

How the results depend on the processing

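Cybrd1 and Cp stayed lower in old mice and past limma's threshold in every alternative fit. This held for both Cybrd1 probe sets and for the brighter Cp probe set wherever each was fitted. With the mean of probe sets per gene, these probe sets have no value of their own. The means differed by -1.98 for Cybrd1 and -0.55 for Cp. The dimmer Cybrd1 probe set has no value of its own with 1 value per gene. Both genes were chosen with the differences in these arrays known, so passing again adds no evidence for them. The number of the 9 measured members with a probe set past the threshold was 3, or 2 to 3 without single mice, 2 at adjusted p under 0.01 and 4 with the run block. No gene that passed changed sign. Over all probe sets the count was 1163, or 698 to 1089 without single mice, 1713 with array weights and 1712 with the run block, 409 at adjusted p under 0.01, 679 genes with the brightest probe set and 755 with the mean of probe sets. The last 3 counts follow from a stricter threshold or from fewer features. For the other counts that moved, the cause was not tested. Among the 76 iron genes outside the members the count was 2, or 1 to 3 without single mice, 4 with array weights and 1 at adjusted p under 0.01. The count that differed between runs of title numbers was 95, or 0 to 584 without single mice (584 without young replicate 3, 0 without old replicates 2, 3 or 4 or young replicates 1 or 2), 226 without dim probe sets and 260 with arrays centred on their median, with 0 members in each. The interaction count was 0, or 0 to 1 without single mice and 1 with a prior by mean level. Probe sets near the non-specific controls, such as those of Heph, limit what could be seen.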

Other observations

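Among the arrays' own controls are 3 probe sets named for the mouse transferrin receptor, to which the annotation used here gives no gene and which were outside the comparisons. The one named for the 3′ part averaged 4.19 ± 0.15 in old and 4.10 ± 0.09 in young mice (SD, n = 4 each). The one for the middle part averaged 4.62 ± 0.08 in old and 4.52 ± 0.14 in young mice, and the one for the 5′ part 4.69 ± 0.08 in old and 4.49 ± 0.09 in young mice. These levels lie within the range of the non-specific controls. The differences, 0.09, 0.10 and 0.20, have the same sign as those of the 3 Tfrc probe sets, and no test was run on them.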
